A study of Lentinus brumalis with 11 samples.

Results

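The shift of the white-rot fungus *P. brumalis* from liquid malt medium to wheat straw was followed at its earliest sampled point, Day 4 of solid-state fermentation (SSF). It rests on 5 of the 11 libraries of the series, chosen by their sample titles. The Day 4 group comprised 2 libraries of the dikaryotic strain BRFM 985, grown for 6 days on 2% malt extract and then for 4 days on sterilized wheat straw wetted with a solution of copper, iron and manganese sulfates. The control comprised 3 libraries of the same strain, kept for 10 days in liquid culture on 2% malt extract. The remaining 6 libraries, from Days 10 and 15 of SSF, entered the statistical fit and are quoted only where they extend a Day 4 value. Groups therefore differed in substrate, in growth on a solid against a liquid, and in the added metals. The SSF inoculum was also ground mycelium and its columns received a wetted air stream, whereas the control was a stationary culture. These differences cannot be told apart. The sources call the cultures biological replicates and give triplicates, whereas Day 4 has 2 libraries here.

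White-rot fungi degrade lignin, the aromatic polymer that encases cellulose and hemicelluloses in plant cell walls. Class II heme peroxidases of the family AA2, here versatile peroxidases (VPs) and short manganese peroxidases (MnPs), oxidize lignin units directly or through chelated manganese. They need H2O2, which oxidases of the families AA3 and AA5 can supply. Glycoside hydrolases (GHs), carbohydrate esterases (CEs) and lytic polysaccharide monooxygenases (AA9) cut the polysaccharides. Intracellular cytochrome P450s and glutathione S-transferases (GSTs) transform the aromatic compounds that are released, and transporters of the major facilitator superfamily carry sugars and other small molecules across membranes.

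Total counts were 26082855 and 23213631 at Day 4, against 41746464, 35964192 and 42408348 in the control. Replicates lay close together. The median gene differed by 0.19 on the log2 scale between both Day 4 libraries, against 0.11 to 0.16 between pairs of control libraries, and 880 genes differed by 1 or more between the Day 4 libraries, against 195 to 212 between control libraries. Levels are log2(normalized count + 1) throughout, and fold changes are log2 values of Day 4 over the control from edgeR's quasi-likelihood test, given ± standard error. A gene was said to rise or fall when its adjusted p was below 0.05. Levels are relative to the RNA sampled, so fewer cells with a transcript and less transcript per cell cannot be told apart.

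Most of the measured transcriptome differed at Day 4. Of 15462 genes tested, 4650 rose (30.1%) and 4986 fell (32.2%), together 62.3%. Of the genes that rose, 4632 were higher in both Day 4 libraries than in every control library, and of those that fell, 4971 were lower in both; without regard to the test, 77.8% of the genes had groups that did not overlap, 38.3% above and 39.4% below the control. The split between rises and falls depended on scaling. When libraries were scaled by their totals alone, 2957 genes rose and 7436 fell, so that rises made up 28.5% of the calls, against 48.3% with TMM scaling; the fold change of the median gene was then -0.45, against -0.07.

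The balance of rises and falls differed with the size of the change. At a log2 fold change of 2 or more, 930 genes rose (6.01%) and 1023 fell (6.62%). At 4 or more, 257 rose (1.66%) and 210 fell (1.36%), at 6 or more 80 rose and 51 fell, and at 8 or more 26 rose and 6 fell. All 7 genes at 10 or more rose, and each was an AA2 or AA5_1 gene. This balance was not stable below 8. With scaling by library totals, 708 genes rose and 1481 fell at 2 or more, and 204 rose and 279 fell at 4 or more. At 2 or more, rises outnumbered falls with a filter of 50 counts (880 and 824) and with a trend in gene length removed (973 and 888). At 4 or more, 248 rose and 271 fell without SSF Day 4 replicate 2; at 6 or more, 78 rose and 91 fell without replicate 1 and 81 rose and 92 fell without replicate 2. At 8 or more, rises outnumbered falls in every alternative run, with 24 and 20 as the closest pair (without SSF Day 4 replicate 2).

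**Figure D1:**
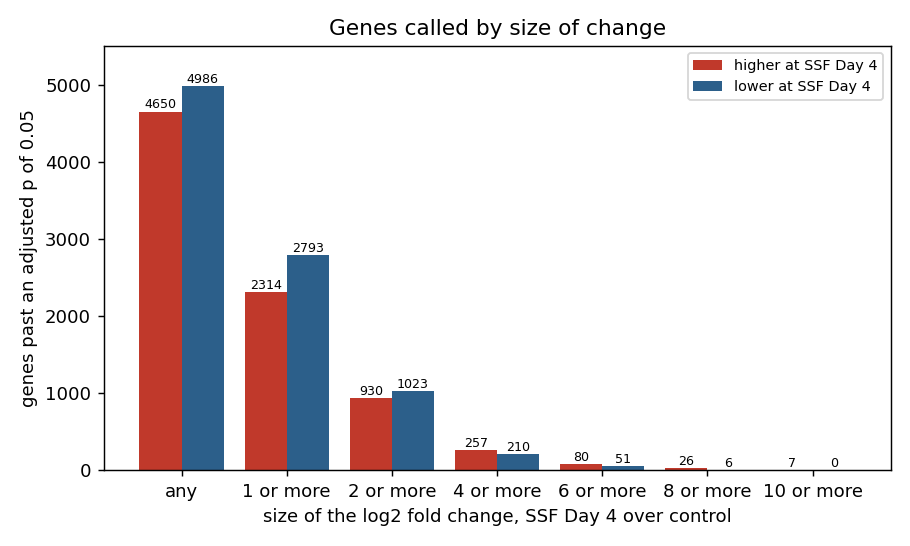
Number of genes past an adjusted p of 0.05 (vertical axis) by the smallest log2 fold change, SSF Day 4 over control (horizontal axis), with genes higher at Day 4 in red and genes lower at Day 4 in blue. With TMM scaling and all libraries, falls outnumber rises up to 2 (930 rises, 1023 falls) and rises outnumber falls from 4 upward (257 rises, 210 falls); with library totals 204 genes rise and 279 fall at 4 or more, and with a filter of 50 counts 880 rise and 824 fall at 2 or more.

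Rises and falls were spread unevenly over expression levels. Divided into quartiles by mean level, the lowest had 3866 genes, of which 11.8% rose and 32.3% fell, whereas in the highest 40.1% rose and 33.3% fell. Complete absence on one side was rare. Only 6 genes had no count in all 3 control libraries and a count in both Day 4 libraries, and 81 genes showed the reverse. After every library was thinned to 20368063 counts, the smallest library total of the series, these numbers were 6 and 78. The highest count among the 6 genes was 38 and among the 81 genes 47, so these were all weakly transcribed genes.

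The most abundant transcripts, by share of counts and not per length, were exchanged. None of the 10 most abundant genes at Day 4 was among the 10 most abundant in the control, and 31 of the top 100 and 554 of the top 1000 were shared. All of the top 10 at Day 4 had risen, and 7 of them were AA2 or AA5_1 genes. Of the control's top 10, 9 fell at Day 4 and 1 did not pass the test, and none was in a list described here. The 10 most abundant genes took 9.21% and 9.38% of the counts at Day 4, against 6.89%, 7.25% and 7.47% in the control. At Day 4, 459 and 451 genes were enough to account for 50% of the counts, against 600, 575 and 569 genes in the control.

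Of the 10 most abundant genes at Day 4, 6 belonged to the AA2 family. Its 19 genes took 7.83% and 7.86% of all counts at Day 4, against 0.114%, 0.115% and 0.0989% in the control, a 71.8-fold higher mean share. Of the 19 genes, 15 rose, 3 fell and 1 did not pass the test, against 30.1% rises and 32.2% falls over all genes tested. Their fold changes had a median of 7.0, against -0.07 over all genes tested. VPs made up most of it, with 6.76% and 6.88% of the counts at Day 4, against 0.0851%, 0.0858% and 0.0729% in the control. Short MnPs took 1.07% and 0.981% at Day 4, against 0.0285%, 0.0286% and 0.0254% in the control.

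Among the 9 VP genes, 8 rose and 1 fell, against 30.1% and 32.2% of all genes tested. VP 1360396 had levels of 18.93 and 18.97 at Day 4, against 6.56, 6.45 and 6.17 in the control, the largest change of any gene tested (12.52 ± 0.19, adjusted p = 2.6e-13, edgeR's quasi-likelihood test). By mean share it became the most abundant transcript, with 1.594% of the counts, closely followed by VP 1487275 with 1.589%. In SSF Day 4 replicate 2, VP 1487275 had more counts than VP 1360396 (372293 against 370770). VP 1110945 had levels of 17.54 and 17.55 at Day 4, against 5.74, 5.93 and 5.78 in the control (11.70 ± 0.63). VP 918032 had levels of 18.03 and 17.95 at Day 4, against 7.37, 7.46 and 7.09 in the control (10.64 ± 0.70). VP 1359988 stood at 17.26 and 17.46 at Day 4, against 6.90, 6.43 and 6.87 in the control (10.58 ± 0.52). These 4 genes were thus weakly transcribed on malt and among the 10 most abundant on straw. Their groups did not overlap, as in 77.8% of all genes tested.

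The other VP genes started from different levels. VP 1487275 reached 18.91 and 18.98 at Day 4, against 9.99, 9.92 and 9.62 in the control (9.05 ± 0.29). VP 1412926 had levels of 14.62 and 15.28 at Day 4, against 7.45, 7.45 and 7.36 in the control (7.53 ± 0.22), the widest gap between both Day 4 libraries among the VPs. VP 897918 had levels of 15.13 and 15.07 at Day 4, against 7.94, 8.15 and 8.08 in the control (7.0 ± 0.20). VP 310665 differed from all of these in being well transcribed on malt already. It had levels of 18.79 and 18.89 at Day 4, against 14.01, 14.08 and 13.82 in the control (4.82 ± 0.25), and was the third most abundant gene at Day 4. VP 935251 went the other way, with 7.49 and 7.41 at Day 4, against 10.47, 10.48 and 10.51 in the control (-3.08 ± 0.18, adjusted p = 8.5e-09, edgeR's quasi-likelihood test).

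The 9 short MnP genes had 7 rises and 1 fall, against 30.1% and 32.2% of all genes tested. The largest rises belonged to 1487289 and 1487292, both annotated by the study as C-terminal fragments and only 324 and 371 bases long. The fragment 1487289 had levels of 15.51 and 15.46 at Day 4, against 3.73, 4.52 and 4.26 in the control (11.32 ± 0.74). The fragment 1487292 had levels of 15.87 and 16.00 at Day 4, against 5.80, 5.31 and 5.37 in the control (10.41 ± 0.71). Of the full-length genes, 1486819 changed most, with 17.03 and 16.75 at Day 4, against 8.61, 8.60 and 8.35 in the control (8.33 ± 0.22). MnP 1340324 followed with 16.28 and 16.26 at Day 4, against 9.44, 9.58 and 9.41 in the control (6.75 ± 0.21).

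The remaining short MnPs reached lower levels or fell. MnP 1347226 had levels of 12.67 and 12.78 at Day 4, against 6.61, 6.67 and 6.61 in the control (6.07 ± 0.36). MnP 1185543 had levels of 12.82 and 13.07 at Day 4, against 6.96, 7.03 and 7.01 in the control (5.91 ± 0.42). MnP 855582 rose less, with 9.07 and 9.33 at Day 4, against 6.33, 6.66 and 6.42 in the control (2.70 ± 0.15). MnP 1363610, the most abundant short MnP on malt, fell to 8.80 and 9.08 at Day 4, against 12.32, 12.35 and 12.19 in the control (-3.39 ± 0.18). MnP 1418086 had levels of 5.65 and 5.78 at Day 4, against 6.26, 6.24 and 6.10 in the control. Its groups did not overlap, as in 77.8% of all genes tested. It missed the limit (-0.54 ± 0.22, adjusted p = 0.0503, edgeR's quasi-likelihood test) and passed it with a stricter filter of 50 counts (-0.57, adjusted p = 0.031, edgeR's quasi-likelihood test). The single generic peroxidase, 1560842, of a class not active on lignin, fell to 5.65 and 5.67 at Day 4, against 6.77, 7.02 and 7.15 in the control (-1.38 ± 0.20).

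**Figure D2:**
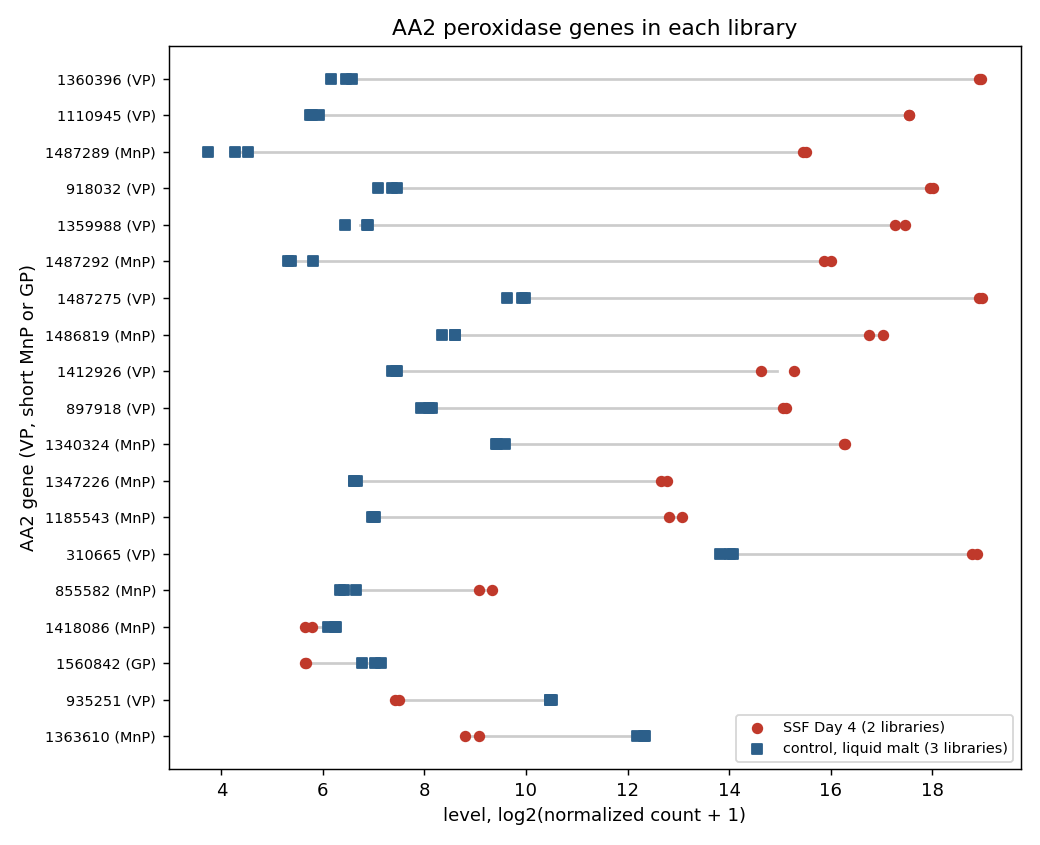
Levels of the 19 AA2 genes, as log2(normalized count + 1), in each of 2 SSF Day 4 libraries (red circles) and 3 control libraries (blue squares), ordered by fold change, with grey lines between group means. The 15 genes that rose end between 9.07 and 18.98 at Day 4, and the lowest 4 genes are lower at Day 4 than in the control.

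Divided by genomic gene length (introns included), the order of the AA2 genes at Day 4 was led by VPs 1487275 and 1360396, with 367990 and 364603 normalized counts per kilobase, followed by 310665 (271081) and 918032 (182448). On this scale the fragment MnPs 1487292 and 1487289 held ranks 5 and 6, with 169107 and 141356. In the control, 310665 (9314 normalized counts per kilobase) led the family, followed by the falling MnP 1363610 (3215). Counts came from uniquely mapped reads, which can be too low where family members are nearly identical, and sequences were not compared here.

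Several of the strongest responders lay near each other in the annotated genome, that of a monokaryotic derivative of the strain. VPs 1487275, 1110945 and 1359988 and the fragments 1487289 and 1487292 lay within 66898 bases, with 30 other genes between them, and their log2 fold changes ranged from 9.05 to 11.70. The 3 AA5_1 genes lay within 32551 bases with 10 other genes between them. In the AA3 family, 1399257 and 1343556 were adjacent and both rose, and the adjacent genes 1388653 and 1408514 both fell, as did 1358588, which was 1 gene away. Over the genome, 271 of the 930 genes that rose by 2 or more were next to another such gene. The same held for 296 of the 1023 that fell by 2 or more. Such rises made up 6.01% of the genes tested and such falls 6.62%. How much adjacency these rates alone would give was not computed. The longest unbroken runs were 4 genes for rises and 6 for falls. Scaffold ends were inferred from the order of the annotation, which can join separate scaffolds.

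The 3 AA5_1 copper radical oxidases, which produce H2O2, all rose, against 30.1% of all genes tested. The study listed them for high transcription and secretion during SSF, so their direction is not independent evidence. Gene 1557562 had levels of 16.80 and 16.94 at Day 4, against 6.36, 6.08 and 5.73 in the control (10.77 ± 0.23). Gene 713930 had levels of 17.56 and 17.65 at Day 4, against 8.51, 8.36 and 8.28 in the control (9.18 ± 0.17), and with 0.629% of the counts it was the seventh most abundant transcript. Gene 1353775 changed less, with 9.31 and 9.47 at Day 4, against 7.01, 6.77 and 6.96 in the control (2.44 ± 0.34, adjusted p = 3.7e-05, edgeR's quasi-likelihood test).

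The AA3 flavo-oxidases, which include H2O2-producing alcohol oxidases and sugar dehydrogenases, had shares of rises and falls near those of all genes in the main fit. Of 36 genes 33 were tested, of which 10 rose, 11 fell and 12 did not pass, against 30.1% rises and 32.2% falls over all genes tested; the median was 0.00, against -0.07. AA3 genes were long, with a median of 2709 bases against 1551 over all genes tested. With a trend in gene length removed, 9 AA3 genes rose and 14 fell, against 4835 and 4675 of all genes tested. The untested genes were 1481505 and 1488846, with no count in any of the 5 libraries, and 1410997, with no count at Day 4 and 11, 15 and 5 counts in the control. Of the 12 genes predicted to be secreted, all in subfamily AA3_2, 4 rose, 5 fell and 3 did not pass.

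The largest AA3 rise was that of 1364967, in AA3_3, a subfamily of alcohol (methanol) oxidases. It had levels of 17.09 and 17.16 at Day 4, against 10.76, 10.86 and 10.64 in the control (6.32 ± 0.17), and accounted for most of the increase of the family's share, which was 0.922% and 0.874% at Day 4, against 0.362%, 0.351% and 0.334% in the control. The AA3_3 gene 1467319 also rose, with 11.34 and 11.32 at Day 4, against 8.99, 9.01 and 8.77 in the control (2.36 ± 0.13). The third AA3_3 gene, 1484504, fell to 9.44 and 9.51 at Day 4, against 11.60, 11.76 and 11.72 in the control (-2.26 ± 0.28). The AA3_4 gene 1404761, of the pyranose oxidase subfamily, had levels of 9.66 and 9.55 at Day 4, against 9.34, 9.45 and 9.28 in the control (0.21 ± 0.12, adjusted p = 0.15, edgeR's quasi-likelihood test).

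AA3_2 genes predicted to be secreted moved in both directions. Secretion is here a prediction from sequence. The study detected the proteins of AA3_3 1364967 and AA3_2 1422328 among those secreted on later days of SSF, although neither was predicted to be secreted. Gene 823803 had levels of 15.01 and 14.94 at Day 4, against 9.83, 9.78 and 9.85 in the control (5.12 ± 0.14). Gene 1399288 had levels of 13.71 and 13.55 at Day 4, against 11.48, 11.39 and 11.43 in the control (2.16 ± 0.16). Genes 823803 and 1399288 were the only members predicted to be secreted that rose by more than 2. Gene 1358588 fell to 8.30 and 8.22 at Day 4, against 11.53, 11.52 and 11.52 in the control (-3.31 ± 0.28), and 1394538 to 7.71 and 7.41 at Day 4, against 10.46, 10.55 and 10.15 in the control (-2.88 ± 0.19). Among members not predicted to be secreted, 1388653 fell to 9.03 and 9.35 at Day 4, against 12.14, 12.17 and 12.11 in the control (-2.99 ± 0.14), and 1349632 to 6.60 and 6.77 at Day 4, against 8.91, 9.11 and 8.73 in the control (-2.29 ± 0.33). The most abundant AA3 gene on malt, 1422328, had levels of 16.08 and 15.80 at Day 4, against 15.32, 15.28 and 15.23 in the control, and did not pass (0.63 ± 0.27, adjusted p = 0.056, edgeR's quasi-likelihood test). The cellobiose dehydrogenase gene 1364243, which joins an AA8 and an AA3 module and oxidizes cellobiose, rose with 13.14 and 13.15 at Day 4, against 6.96, 6.62 and 6.67 in the control (6.36 ± 0.23).

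**Figure D3:**
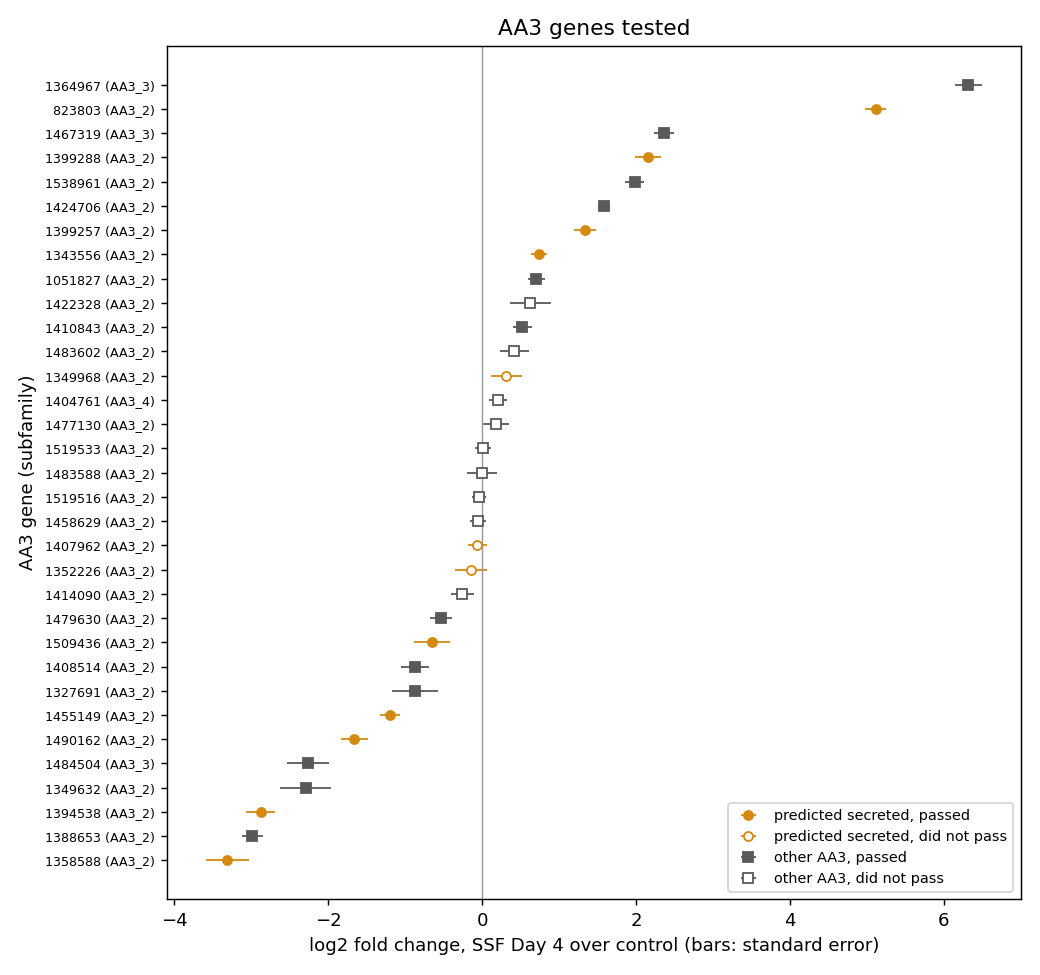
Log2 fold change, SSF Day 4 over control (horizontal axis, bars are standard errors), of the 33 AA3 genes tested, with genes predicted to be secreted as orange circles and the others as grey squares; filled symbols passed an adjusted p of 0.05. The family spans -3.31 to 6.32, and members predicted to be secreted span -3.31 to 5.12.

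Carbohydrate-active enzymes that the study listed for Day 4 were chosen by it on these libraries, so their direction is not independent evidence. The table as read here holds fewer genes than the study's text gives. All 52 rose, against 30.1% of all genes tested, with a median log2 fold change of 6.25. They took 8.77% and 9.00% of the counts at Day 4, against 0.105%, 0.103% and 0.0995% in the control. This table includes several AA2 and AA5_1 genes named above. The 13 genes of cellulose-active families spanned 1.78 to 9.78, with a median of 6.43, and the 17 genes for hemicelluloses and pectin had a median of 6.18. The 8 genes of families GH3, GH15, GH16, GH18 and GH76, acting on oligosaccharides, starch, glucans, chitin and mannans, had a median of 3.61.

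GH7 cellobiohydrolases, which release cellobiose from cellulose chain ends, led the cellulose-active genes. GH7 1347545 had levels of 15.89 and 15.98 at Day 4, against 6.34, 6.16 and 5.82 in the control (9.78 ± 0.34), and GH7 355477 had 14.81 and 14.85 at Day 4, against 6.32, 6.69 and 6.60 in the control (8.25 ± 0.67). The 5 AA9 genes rose by 4.81 to 8.01. In 4 of the AA9 genes the level was higher by 0.31 to 0.68 in the Day 4 replicate 2 than in replicate 1. The smallest changes of the group were those of AA9 1403153, with 13.67 and 13.77 at Day 4, against 8.80, 8.84 and 8.97 in the control (4.81 ± 0.17), and of GH5 1063890, with 12.31 and 12.04 at Day 4, against 10.32, 10.49 and 10.24 in the control (1.78 ± 0.16).

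Among genes for hemicelluloses and pectin, the xylanase gene GH10 1486161 had levels of 13.88 and 14.32 at Day 4, against 4.88, 4.34 and 4.42 in the control (9.55 ± 0.62). CE15 1486135, of the glucuronoyl esterases that cut ester links between lignin and hemicellulose, had 13.90 and 14.15 at Day 4, against 5.63, 5.28 and 5.27 in the control (8.61 ± 0.18). At the other end, CE16 1395444, of an acetyl esterase family, had 11.29 and 11.43 at Day 4, against 8.51, 8.45 and 8.45 in the control (2.85 ± 0.17). GH27 1498325, of the alpha-galactosidases, had 12.45 and 12.55 at Day 4, against 9.79, 9.77 and 9.87 in the control (2.65 ± 0.13). The 4 GH10 genes alone spanned 3.60 to 9.55.

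In the other families, 2 of the 4 GH3 genes, a family with beta-glucosidases, were at the top and 1 at the bottom. GH3 1364811 had levels of 12.47 and 12.25 at Day 4, against 6.06, 6.42 and 6.44 in the control (6.02 ± 0.35), and GH3 593055 had 12.96 and 13.05 at Day 4, against 7.27, 7.12 and 6.90 in the control (5.87 ± 0.19). GH3 615361 had levels of 12.67 and 12.98 at Day 4, against 10.75, 10.95 and 10.87 in the control (1.93 ± 0.19). GH16 1484581 had 13.30 and 13.26 at Day 4, against 11.20, 11.24 and 11.11 in the control (2.05 ± 0.10).

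The intracellular detoxification and transport genes described here are those the study placed in its core set, chosen on these libraries as highly transcribed on all 3 sampled days of SSF and not in the control, and are not all its genes of these kinds. All of them rose, against 30.1% of all genes tested, a direction that the choice favors. The 11 cytochrome P450 genes had a median log2 fold change of 3.91, the 4 GSTs 3.78 and the 14 major facilitator genes 3.04. CYP53 1398198, of a family known in fungi for benzoate hydroxylation, had levels of 14.18 and 14.38 at Day 4, against 7.43, 7.71 and 7.33 in the control (6.75 ± 0.14). CYP5150 1364780 had 13.30 and 13.14 at Day 4, against 7.71, 7.94 and 7.76 in the control (5.38 ± 0.23). The smallest changes belonged to both CYP5144 genes. CYP5144 1487024 had levels of 13.12 and 12.97 at Day 4, against 10.30, 10.29 and 10.35 in the control (2.69 ± 0.11), and CYP5144 1416167 had 11.35 and 12.49 at Day 4, against 9.53, 9.61 and 9.76 in the control (2.35 ± 0.28), so that its Day 4 libraries differed by 1.14.

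GSTs conjugate glutathione to reactive compounds. GST 1399835 had levels of 14.93 and 15.31 at Day 4, against 10.69, 10.71 and 10.93 in the control (4.31 ± 0.15). GST 1516684 had 12.82 and 13.20 at Day 4, against 8.79, 9.08 and 8.95 in the control (4.04 ± 0.14). GST 1364150 had 13.08 and 13.61 at Day 4, against 9.80, 9.79 and 9.83 in the control (3.52 ± 0.18). All were higher in replicate 2 than in replicate 1 of Day 4, as was GST 1357910, with 13.83 and 14.23 at Day 4, against 10.55, 10.60 and 10.50 in the control (3.45 ± 0.17).

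Transporters covered a wider range. The major facilitator gene 1452357 had levels of 13.38 and 13.46 at Day 4, against 6.65, 6.78 and 6.56 in the control (6.72 ± 0.12), and 1454421 had 14.36 and 14.27 at Day 4, against 9.40, 9.51 and 9.36 in the control (4.84 ± 0.13). The smallest rises were those of 1394716, with 10.92 and 11.08 at Day 4, against 9.05, 9.06 and 8.99 in the control (1.92 ± 0.12), and of 1451844, with 12.94 and 12.50 at Day 4, against 11.12, 11.11 and 11.04 in the control (1.60 ± 0.13). The list took 0.442% and 0.431% of the counts at Day 4, against 0.0587%, 0.0583% and 0.0568% in the control.

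**Figure D4:**
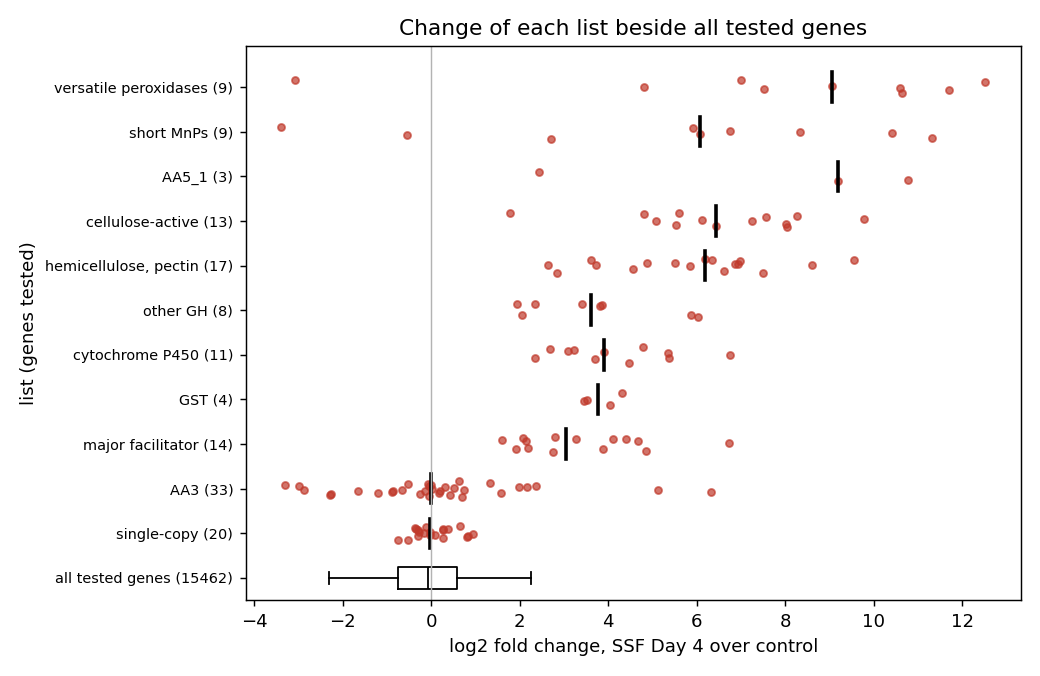
Log2 fold change, SSF Day 4 over control (horizontal axis), of every tested gene of each list (points, with the list median as a black bar) above a box of all 15462 tested genes (box for quartiles and median, whiskers for the 5th and 95th percentiles). List medians run from 9.18 (AA5_1) to 3.04 (major facilitator), while AA3 (0.00) and the single-copy genes (-0.02) lie near the median of all genes. AA3 and single-copy genes were long, with medians of 2709 and 5335 bases against 1551 over all genes tested.

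The 20 single-copy genes used for the study's phylogeny served for comparison. Their median fold change was -0.02, and every member lay between -0.75 and 0.95. Of the 20, 5 rose and 3 fell, against 30.1% and 32.2% of all genes tested, and the falls numbered 0 without SSF Day 4 replicate 2 and 12 with scaling by library totals. The list holds long genes, with a median of 5335 bases against 1551 over all genes tested. With a trend in gene length removed, 5 of them rose and 11 fell, against 4835 and 4675 of all genes tested. The SCP160 gene 866538 had levels of 14.33 and 14.21 at Day 4, against 13.33, 13.38 and 13.12 in the control. The SEN1 gene 1399192 had 9.17 and 8.55 at Day 4, against 9.71, 9.47 and 9.61 in the control. Most of the list differed between the 2 Day 4 libraries in the same direction, with a median of -0.26 for replicate 2 minus replicate 1. The list took 0.177% and 0.149% of the counts at Day 4, against 0.181%, 0.170% and 0.160% in the control, a ratio of mean shares of 0.956, which was 1.28 with normalized counts.

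Outside the lists, the largest rises with no overlap between groups were those of genes 1361471 and 1488932, and the largest falls those of 1559509 and 1410703; the tables used here give no product for them. Gene 1361471 had levels of 14.96 and 15.02 at Day 4, against 5.40, 4.82 and 4.70 in the control (9.97 ± 0.26). Gene 1488932 had 2853 and 2791 counts at Day 4, against 9, 3 and 10 in the control (9.63 ± 0.37). Gene 1559509 fell to 46 and 68 counts at Day 4, against 66930, 51190 and 74223 in the control (-9.04 ± 0.51). It averaged 16.01 at Day 10 and 17.46 at Day 15 on the log2 scale, so that its low value was found only at Day 4 among the 4 groups. Gene 1410703 fell to 2 and 4 counts at Day 4, against 2747, 2722 and 3112 in the control (-8.78 ± 0.54).

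Gene length moved with the calls. In the shortest eighth of the tested genes (up to 780 bases, introns included) 15.0% rose and 41.9% fell, whereas in the longest eighth (2897 bases or more) 47.3% rose and 18.3% fell, and the median log2 fold change was -0.50 in the shortest and 0.29 in the longest. Spearman's rho between length and fold change was 0.26 across 15459 genes, which are not independent replicates. The contrast was present among well transcribed genes: in the highest quartile by level, the shortest genes had 21.9% rises and 53.7% falls, and the longest 49.8% rises and 17.9% falls. In the lowest quartile it was small, with 11.2% rises and 31.9% falls among the shortest genes and 14.1% and 30.2% among the longest. Length also moved with differences between replicates, with a rho of -0.19 for Day 4 replicate 2 minus replicate 1 and of -0.12 to -0.27 for pairs of control libraries. Its part in the calls was not tested. When a trend with length was removed from each library, an alternative added after this was seen, 4835 genes rose and 4675 fell. In that fit the shortest eighth had 25.1% rises and 27.1% falls, and the longest 34.8% rises and 32.9% falls. The calls of the AA2, AA5_1, GST, P450, CAZyme and major facilitator genes named above were the same in it.

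**Figure D5:**
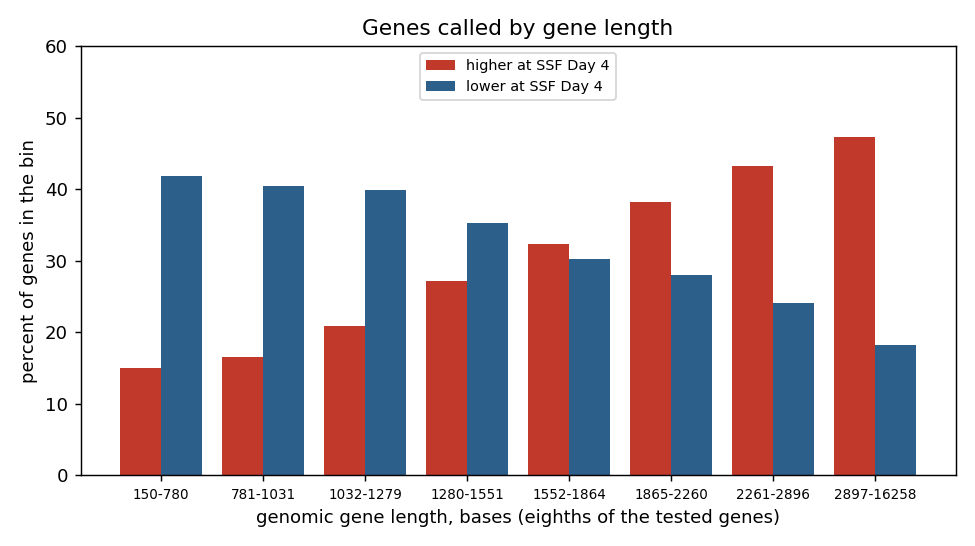
Percent of tested genes that were higher (red) or lower (blue) at SSF Day 4 than in the control (vertical axis), in eighths of genomic gene length in bases (horizontal axis). Rises go from 15.0% in the shortest eighth to 47.3% in the longest, and falls from 41.9% to 18.3%.

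The Day 4 state did not last for every list. Between Day 10 and Day 4, 22.3% of all tested genes were higher at Day 10 and 22.0% lower. At Day 10, 5 of the 19 AA2 genes exceeded and 12 fell below their Day 4 level, and of the 13 cellulose-active genes 0 were higher and 11 lower. The genes for hemicelluloses and pectin divided, with 8 of 17 higher and 6 lower, and the 3 AA5_1 genes were all higher at Day 10. At Day 15, where 28.6% of all genes exceeded and 29.2% fell below their Day 4 value by the same test, the AA2 genes had 5 higher and 13 lower and the cellulose-active genes 0 higher and 12 lower, while of the 3 AA5_1 genes 0 were higher and 0 lower. Most of these genes had been listed for high values at Day 4, which favors a later fall.

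Among single AA2 genes, VP 1360396 averaged 18.95 on Day 4, then 14.78 on Day 10 and 12.07 on Day 15. MnP 1347226 averaged 12.72 on Day 4, then 15.16 on Day 10 and 16.27 on Day 15. The fall of the first (-6.86 at Day 15 against Day 4, adjusted p = 3.3e-11) and the rise of the second (3.57, adjusted p = 2.8e-06) both passed edgeR's quasi-likelihood test.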

How the data were processed

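The authors deposited counts of reads per gene. Paired-end reads were trimmed, aligned by TopHat2 against a genome from a monokaryotic derivative of BRFM 985, and, where uniquely mapped, counted with HTSeq. DESeq 1.5 is also named in the submitters' notes. Strand mode and the aligner's full version: not given in the sources used here. Those sources differ on the length of the preliminary culture and of the reads.

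Of 18244 genes, 15462 passed filterByExpr (minimum count 10, minimum total 15). Day 4 was compared with the control in edgeR 4.0.16 (R 4.3.3) with TMM scaling, 1 fit of 4 group means on 11 libraries, quasi-likelihood F tests and a limit of 0.05 after Benjamini-Hochberg adjustment; the standard error is the absolute log2 fold change over the square root of F. With 2 libraries against 3, p-values lean on the spread of the other groups. Levels use DESeq2 1.42.0 size factors. The fit was tested on simulated data in which few genes changed, unlike here, so that test does not bear on scaling under so broad a shift. Gene lengths and neighbours come from the RefSeq annotation of Polbr1, in which 18240 of the 18244 genes matched by locus tag number.

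Lists are the study's, divided by family. The members, lists and comparison were chosen with earlier results of these data known. Named genes are all AA2, AA5_1, GST, AA3_3 and AA3_4 genes, the 4 largest rises and falls in AA3, the 2 largest and 2 smallest changes in every other list, list members among the 10 most abundant genes, and the 2 largest rises and falls outside the lists; AA3 1422328 was added after its values were seen. Alternatives were other scalings and filters, the DESeq2 Wald test, a 2-group fit, a replicate block, a fold minimum, thinned counts, each library left out and removal of a length trend. Summaries used Python 3.11.15, numpy 2.4.6, pandas 2.3.3 and matplotlib 3.10.9.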

Additional observations from a re-analysis of the deposited data

How the results depend on the processing

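Scaling by library totals gave 2957 rises, so that 28.5% of the calls were rises, with 2 short MnPs and 12 single-copy genes lower. A log2 fold minimum of 1 left 2314 rises, 2793 falls, 7 AA3 falls and, among the single-copy genes, 0 rises and 0 falls. The single-copy list also had 6 falls with a filter of 50 counts, 5 with the replicate block and 11 with the length trend removed; short MnPs had 2 falls with the filter of 50 counts and with the block. The AA3_4 gene 1404761 reversed to -0.17 with library totals and to -0.077 with the length trend removed, without passing in any of the 3 fits. With normalized counts in place of library totals, the fold of the summed counts was 96.1 for AA2, against 71.8, 116 for the 52 listed CAZymes, against 86.7, and 1.28 for the single-copy genes, against 0.956, which turned its direction. The cause of these differences was not tested.

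Deviations from the group mean correlated at 0.16 and -0.02 for same-numbered libraries of Day 4 and the control. With 2 Day 4 libraries these deviations mirror each other, so the check cannot decide whether replicate numbers pair the libraries. The replicate block gave 4661 rises and 4961 falls. With each library left out in turn, 4025 to 4810 genes rose and 4054 to 5374 fell, single-copy falls numbered between 0, when SSF Day 4 replicate 2 was left out, and 6, when Day 10 replicate 3 was, and short MnP falls 1 to 2. Of the 65 named genes, SEN1 1399192 and RRP5 1401876 lost their call without SSF Day 4 replicate 2 (adjusted p = 0.089 and 0.17, edgeR's quasi-likelihood test). Depth limits the weakly transcribed genes most: Day 4 libraries were shallower than the control, and genes with no count at Day 4 may lie under its detection.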
